A study of Mus musculus with 57 samples.

Results

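The genes of 10 circulating factors, hepatokines and growth hormone dependent proteins of the liver, were followed in mouse liver 24 h after 7 hepatotoxic compounds. They were chosen by name, as the rows of the deposited count table whose Ensembl ID maps to Fgf21, Gdf15, Angptl4, Angptl8, Igf1, Igfbp1, Fgl1, Lect2, Fst or Enho. All 10 symbols were found among the 54307 genes of the table, and all 10 passed the low-count filter in every comparison below.

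The samples were livers of 57 male C57BL/6JJcl wild-type mice, 6 weeks old, acclimatised for 1 week and fasted for 12 h before dosing. Whether food was returned after dosing is not given in the sources used here, and neither are the compounds' doses. Vehicle mice received 0.5% methylcellulose by gavage (Ctrl, n = 13), or 0.9% saline into the peritoneum (CIP, n = 2) or a vein (CIV, n = 2). Gavage compounds numbered 4: alpha-naphthyl isothiocyanate, a bile duct toxicant (ANIT, n = 4), acetaminophen (APAP, n = 6), 4,4'-methylene dianiline (MDA, n = 7) and thioacetamide (TAA, n = 5). Carbon tetrachloride (CCl4, n = 7) and galactosamine (GAL, n = 4) were injected into the peritoneum, and concanavalin A, a lectin that activates T cells (ConA, n = 7), into a vein. The labels name corn oil as a further vehicle without saying for which compound, and no corn oil control was used here, so for such a compound the vehicle and the compound cannot be told apart. Gavage compounds share the Ctrl mice, and CCl4 and GAL share the CIP mice, so their comparisons are not independent.

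Hepatokines are proteins that hepatocytes release into blood and that act on other tissues. Fgf21 is a fasting and stress hormone that signals through Fgfr1 with its co-receptor Klb, and Gdf15 is a stress-induced hormone read in the brainstem by Gfral. Angptl4 and Angptl8 restrain lipoprotein lipase, the first mainly in fasting and the second after feeding. Pituitary growth hormone acts in hepatocytes through Ghr, Jak2 and Stat5 to drive Igf1 and Igfals, while Socs2 and Cish feed back on that signal. Igfbp1 binds Igf1 in blood and is held down by insulin. Fgl1 is a hepatocyte growth factor and immune checkpoint ligand, Lect2 a leukocyte chemotactic factor, Fst a secreted antagonist of activins, and Enho encodes adropin, a peptide linked to energy balance.

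Promoter sequences from RefSeq (build GRCm38.p6) were available for 6 of the 10 genes. They were searched on both strands, from 250 bases before to 50 after the start, for TGATGNAA, the core of sites bound by ATF4 with C/EBP partners. This core was present in 3.97% of the 32851 promoters of the table and in those of Fgf21 and Angptl8, which are shown because these 2 genes moved in opposite directions with ANIT and MDA. In the Fgf21 promoter, on the minus strand of chr7:45615491-45615740, the match begins 139 bases before the start. In the Angptl8 promoter, on the plus strand of chr9:21835260-21835509, it begins 130 bases before. Both are printed 5′ to 3′ with the match in capitals.
Fgf21: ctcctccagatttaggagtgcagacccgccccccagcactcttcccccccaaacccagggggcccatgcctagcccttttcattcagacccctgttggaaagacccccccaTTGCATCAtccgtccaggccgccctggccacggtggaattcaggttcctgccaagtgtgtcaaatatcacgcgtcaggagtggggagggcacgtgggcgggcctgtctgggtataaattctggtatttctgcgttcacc
Angptl8: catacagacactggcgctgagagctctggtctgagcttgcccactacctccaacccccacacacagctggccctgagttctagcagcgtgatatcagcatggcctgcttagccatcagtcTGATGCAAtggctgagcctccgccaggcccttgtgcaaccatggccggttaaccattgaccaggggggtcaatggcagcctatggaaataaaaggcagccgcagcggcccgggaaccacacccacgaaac
The Fgf21 match lies on the opposite strand, hence TTGCATCA. The STAT5 letters TTCNNNGAA, held by 8.30% of all promoters, and the direct repeat bound by PPAR with RXR, held by 0.0396%, were in none of the windows of these 6 genes. A match is a run of letters, not evidence of binding.

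The libraries held 13826343 to 35075809 estimated counts (median 21532116), and mitochondrial genes took 5.11% to 39.3% of them. Levels are given as CPM, estimated counts scaled to a common library total with TMM factors over the 57 mice. Summed hepatocyte markers (8 genes) stood at 49900 to 109000 CPM in Ctrl and 53400 to 58000 in CIP, but at 18400 to 28800 with CCl4 and 25600 to 33100 with GAL, where 7 of the 8 were called lower in each. The markers were not run with library totals in place of TMM, a scaling that shifted the median of all genes by 0.434 with CCl4 and 0.762 with GAL on the log2 scale. Fewer hepatocytes and less RNA per hepatocyte cannot be told apart in these bulk samples. CIP mouse 8 held 219 CPM of exocrine pancreas markers, against 2.29 in CIP mouse 7 and 0.569 to 18.1 in Ctrl, so results against CIP are also given without it where that changes the call. Against CIP such fits hold 1 control mouse, and the share of all genes called in them was not computed. Leaving out CIP mouse 7 also lost some member calls, and the gene lists were not run without that mouse. Whether a call was lost through the pancreas markers was not tested. Neutrophil markers summed to 161 to 840 CPM with TAA and 129 to 291 with ConA, against 3.17 to 69.2 in Ctrl and 8.10 to 10.6 in CIV. With ConA, monocyte and macrophage markers summed to 66.5 to 144 CPM and cholangiocyte markers to 93.1 to 204, against 246 to 254 and 26.7 to 62.1 in CIV. Median monocyte and macrophage sums were 136 with ANIT, 278 with APAP, 138 with MDA and 224 with TAA, against 290 in Ctrl. Median cholangiocyte sums were 23.3, 82.5, 53.2 and 83.6 in the same order, against 42.3 in Ctrl. The part of these shifts in the results below was not tested, unless a value is given.

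A gene is called where the edgeR quasi-likelihood test, Benjamini-Hochberg adjusted over all genes tested, gave an adjusted p under 0.05. Against the vehicle of the same route, the members called were 6 of 10 with ANIT (3 higher, 3 lower), where 28.2% of all genes were called. They were 6 with APAP (5 higher, 1 lower; 31.8% of all genes), 7 with MDA (3 higher, 4 lower; 33.8%) and 8 with TAA (6 higher, 2 lower; 50.5%). With CCl4 4 members were called (1 higher, 3 lower; 33.5%), with GAL 5, all lower (28.5%), and with ConA 8 (5 higher, 3 lower; 34.2%). The CCl4 count is near its background, and each of the others lies above it. The CCl4 count was again 4 under library total scaling, but Fgf21, Angptl8 and Fgl1 were then higher and Enho lower, while Igf1 and Lect2 were not called. The GAL count fell to 2 under that scaling, Igf1 and Igfbp1, and was also 2 without GAL mouse 8. The share of all genes called was not computed in these settings. Lect2 was lower with all 7 compounds and Enho with 6, whereas no member was called higher with more than 5.

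**Figure D1:**
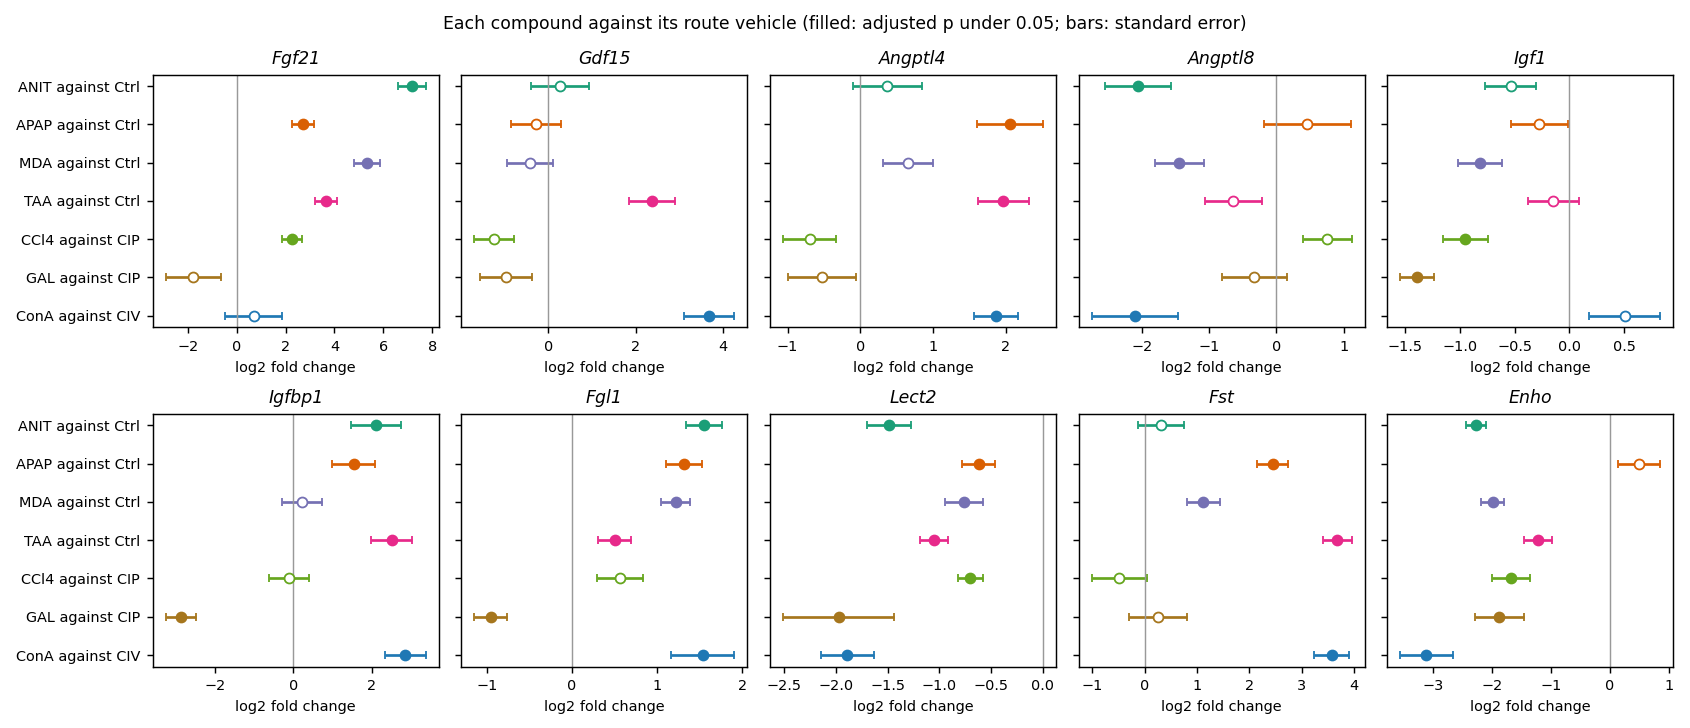
Log2 fold change (x axis, scaled to each panel) of the 10 genes with each compound against its route vehicle (y axis); bars are standard errors, and filled points have an edgeR adjusted p under 0.05. Fgf21 and Fgl1 each rose with 5 compounds, Lect2 fell with 7 and Enho with 6, and GAL has no filled point to the right of 0.

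Of the 10 genes, Fgf21 had the highest log2 fold change against a route vehicle, with ANIT. It stood at 0.168 to 3.16 CPM in the 13 Ctrl mice (median 0.447), and at 28.1, 94.8, 251 and 52.6 CPM in the 4 ANIT mice. Every ANIT mouse lay above every Ctrl mouse, and the log2 fold change was 7.17 ± 0.57 (SE; edgeR adjusted p = 2.94e-07), or 144-fold. Without ANIT mouse 3, the highest, it was 6.31 (edgeR adjusted p = 2.45e-06). The lowest Ctrl mouse had 3.07 estimated counts of Fgf21, so the size of these folds rests on few reads in the controls. All 4 ANIT mice are numbered 1 to 4, and against Ctrl mice 1 to 4 alone the log2 fold change was 8.78 (edgeR adjusted p = 7.56e-04).

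With MDA, Fgf21 ran from 5.27 to 90.4 CPM (median 19.5, n = 7), or 5.31 ± 0.53 above Ctrl on the log2 scale (edgeR adjusted p = 2.75e-07). Leaving out MDA mouse 7, the highest, gave 4.69. TAA mice held 7.09, 9.08, 10.2, 9.44 and 8.93 CPM, the narrowest spread of the 4 gavage compounds (log2 fold change 3.65 ± 0.46, edgeR adjusted p = 1.97e-06). APAP mice held 3.33 to 6.77 CPM (median 4.38, n = 6; 2.73 ± 0.45, edgeR adjusted p = 1.48e-04). All MDA, TAA and APAP mice were above all Ctrl mice, the lowest APAP mouse by a small margin over the highest Ctrl mouse. Among mice numbered 1 to 4 alone the values were 5.97 with MDA, 5.12 with TAA and 4.20 with APAP, all called.

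Among the injected compounds, CCl4 mice held 2.28 to 4.44 CPM of Fgf21 (median 3.34, n = 7) against 0.509 and 0.980 in the CIP mice. These ranges did not overlap (2.27 ± 0.40, edgeR adjusted p = 0.00218; 2.25 and 0.119 in one fit over all mice, where the call was lost). GAL mice held 0, 0.396, 0.101 and 0.304 CPM, all under both CIP mice, but the difference of -1.79 ± 1.12 did not pass the test (edgeR adjusted p = 0.265). ConA mice ran from 0.0891 to 7.21 CPM (median 1.35) and overlapped the CIV mice at 2.57 and 0.608 (0.70 ± 1.16, edgeR adjusted p = 0.674; 2.10 without CIV mouse 7 and -0.007 without CIV mouse 8).

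Compounds of 1 route were also set against each other directly, without control mice. Fgf21 was higher with ANIT than with APAP by 4.43 ± 0.55 (log2; edgeR adjusted p = 0.00499) and than with TAA by 3.52 ± 0.53 (edgeR adjusted p = 0.00152), with no overlap of mice in either. Without ANIT mouse 3 these were 3.62 and 2.68, both still called. MDA exceeded APAP by 2.59 on the same scale, written as -2.59 ± 0.54 for APAP minus MDA (edgeR adjusted p = 0.00893; -1.97 without MDA mouse 7), and TAA by 1.68 ± 0.54 (edgeR adjusted p = 0.0321). The latter call was lost without any 1 of the 5 TAA mice, and the difference was 1.06 without MDA mouse 7. ANIT and MDA differed by 1.85 ± 0.70, which did not pass (edgeR adjusted p = 0.487), and by 0.98 without ANIT mouse 3. CCl4 exceeded GAL by 3.94 ± 0.60 (edgeR adjusted p = 3.08e-04). The order of the medians was thus ANIT, MDA, TAA, APAP, CCl4, ConA and GAL, and among neighbours in it the TAA and APAP mice did not overlap, yet their difference of -0.92 ± 0.23 (APAP minus TAA) had an edgeR adjusted p of 0.0587.

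The ATF4 and CHOP arm of the stress response, which Fgf21 belongs to as a target gene, was read from 14 genes. Of the 13 or 14 tested, 10 rose and 1 fell with ANIT (median log2 fold change 1.80, against -0.01 over all genes). With APAP 9 rose and 1 fell (median 1.41), with MDA 9 and 1 (0.88), with TAA 10 and 0 (1.62), with CCl4 12 and 1 (2.91), with ConA 10 and 0 (1.597) and with GAL 3 and 3 (0.40). Each total called lay above the share of all genes called with the same compound, which ran from 28.2% with ANIT and 28.5% with GAL to 50.5% with TAA. Under library total scaling the counts with MDA were 6 and 1, with GAL 6 and 2 and with ConA 5 and 1, and without CIP mouse 8 those with GAL were 2 and 1. Psat1, a serine synthesis enzyme, and Sesn2 were called higher with all 7 compounds, by 2.14 to 5.64 and by 0.71 to 2.26. Both lost their ConA call under library total scaling, and without CIP mouse 8 Psat1 lost the GAL call and Sesn2 the CCl4 call. Ddit3, which encodes CHOP, rose by 5.25 ± 0.34 with CCl4 and by 1.498 ± 0.28 with ANIT, the reverse of the order of Fgf21 in these 2 groups. Atf4 itself rose by 1.12 ± 0.23 with ANIT and 1.13 ± 0.13 with CCl4, and stood at 0.12 ± 0.19 with GAL. Asns, the asparagine synthetase gene, rose with 6 compounds (1.32 to 2.47) and was at -0.04 ± 0.34 with GAL. Trib3 rose with ANIT (1.91 ± 0.47), CCl4 (3.01 ± 0.19) and ConA (1.58 ± 0.39). Under library total scaling the ConA calls of Atf4, Asns and Trib3 and the MDA call of Atf4 were lost.

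Fgf21 is also a target of PPARα, the fatty acid sensor of fasting. In the list of Fgf21 receptors and PPARα targets (15 tested), 7 rose and 1 fell with ANIT, 4 and 2 with MDA, 7 and 3 with TAA, 7 and 0 with ConA, 3 and 6 with APAP, 1 and 8 with CCl4, and 3 and 6 with GAL. Under library total scaling these counts were 4 and 1 with ANIT, 5 and 3 with APAP, 5 and 3 with ConA, and 4 and 0 with GAL, and without CIP mouse 8 the GAL counts were 1 and 0. The 6 of 15 called with MDA lay near the 33.8% of all genes called, and the MDA counts were 3 and 1 under library total scaling. In the first counting each other total lay above the share of all genes called with the same compound (28.2% to 50.5%). That share was not computed for the other settings. Plin2, the lipid droplet coat protein, rose with 6 compounds, and its value with GAL was 0.47 ± 0.20; the ConA call was lost under library total scaling. Cyp4a10, a fatty acid hydroxylase, rose by 2.05 ± 0.28 with ANIT and 2.56 ± 0.45 with ConA but fell by 1.19 on the log2 scale with CCl4. Ppara fell with CCl4 (-1.16 ± 0.22) and rose with TAA (0.45 ± 0.13). Klb fell with APAP (-0.82 ± 0.24) and TAA (-1.85 ± 0.20), and Fgfr1 rose with APAP (1.22 ± 0.31), TAA (1.68 ± 0.18) and ConA (2.28 ± 0.38). Fgfr4, the main receptor for bile acid signalling through Fgf15, fell with CCl4 (-1.22 ± 0.18), GAL (-2.55 ± 0.64) and TAA (-0.32 ± 0.11). Library total scaling removed the Klb call with APAP and the Fgfr4 calls with GAL and TAA, and the GAL call was also lost without CIP mouse 8.

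**Figure D2:**
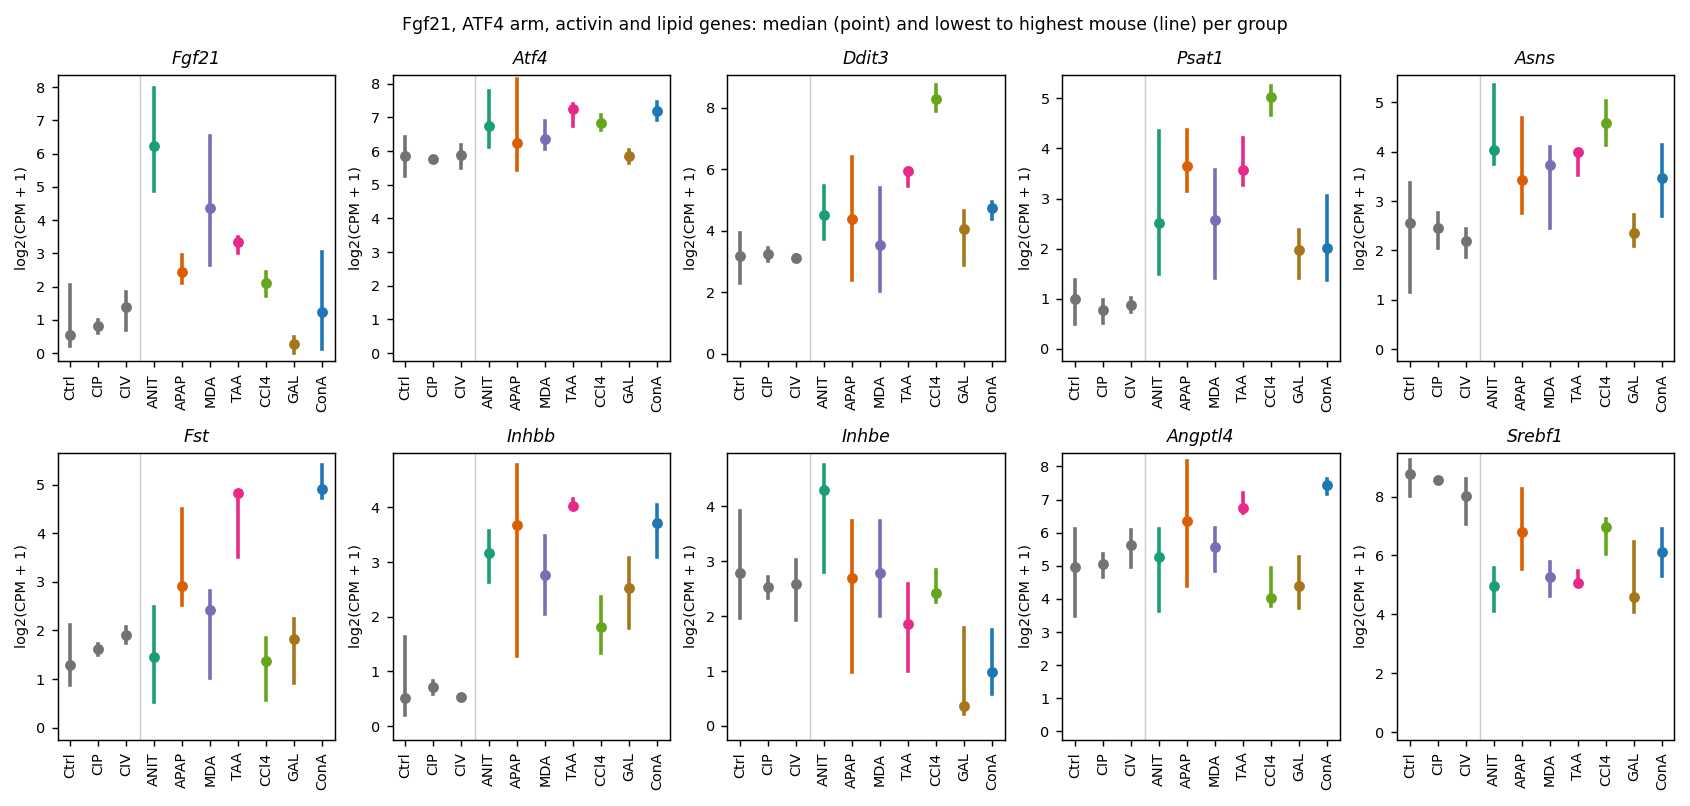
Log2(CPM + 1) of Fgf21 and 9 partner genes by group (x axis); points are medians and lines run from the lowest to the highest mouse, with vehicles in grey. The medians of Fgf21 are highest with ANIT (73.7 CPM) and MDA (19.5 CPM), whereas Ddit3 and Psat1 are highest with CCl4.

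Gdf15 rose with TAA and ConA and with no other compound against its route vehicle. Ctrl mice ranged from 3.92 to 117 CPM (median 30.0), and TAA mice held 208, 84.6, 152, 257 and 180 CPM. Within Ctrl, mice 7, 8, 9, 10 and 12 held 46.1 to 117 CPM and every other mouse 30.5 or less. The TAA mouse at 84.6 lay under the highest Ctrl mouse, and the log2 fold change was 2.38 ± 0.53 (edgeR adjusted p = 9.06e-04). ConA mice ran from 128 to 374 CPM (median 266, n = 7), all above the CIV mice at 29.6 and 11.2 (3.69 ± 0.58, edgeR adjusted p = 0.00102; 4.59 without CIV mouse 7).

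For the other compounds Gdf15 changes did not pass: 0.26 ± 0.67 with ANIT, -0.28 ± 0.57 with APAP and -0.43 ± 0.54 with MDA. The APAP value was 1.32 among mice numbered 1 to 4 and -1.575 above 4 (edgeR adjusted p = 0.13 and 0.205). CCl4 (21.6 to 46.2 CPM, median 31.8) and GAL (33.3, 34.5, 39.1 and 52.7 CPM) gave -1.25 ± 0.45 and -0.97 ± 0.60 against CIP mice that stood at 129 and 23.6 CPM. Without CIP mouse 8 these became -2.01 and -1.76 and were called lower (edgeR adjusted p = 0.00148 and 0.0291), and without CIP mouse 7 they were 0.49 and 0.83 and were not. The 2 saline mice thus set the sign. Directly compared, Gdf15 was lower with ANIT (-2.11 ± 0.52, edgeR adjusted p = 0.0146), APAP (-2.63 ± 0.47, edgeR adjusted p = 0.0177) and MDA (-2.79 ± 0.44, edgeR adjusted p = 4.37e-04) than with TAA, with no overlap of mice. The APAP call was lost without APAP mouse 4, TAA mouse 7 or TAA mouse 8, with the highest edgeR adjusted p at 0.0564. Gfral, its receptor, was listed at 0 in all 57 livers.

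Angptl4 rose with APAP, TAA and ConA. Ctrl mice held 10.2 to 68.1 CPM (median 30.5), and TAA mice 105, 145, 95.5, 106 and 111, all above them (1.97 ± 0.35, edgeR adjusted p = 1.25e-04). APAP mice were far apart, from 19.96 to 289 CPM (median 80.7, n = 6), and overlapped Ctrl (2.06 ± 0.46, edgeR adjusted p = 0.00186). ConA mice stood close together at 143 to 195 CPM (median 172), above the CIV mice at 30.0 and 66.3 (1.86 ± 0.30, edgeR adjusted p = 0.00131). The ConA value was 2.51 without CIV mouse 8, and called with either CIV mouse left out.

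Angptl4 was not called with ANIT (0.37 ± 0.48), MDA (0.66 ± 0.34), CCl4 (-0.70 ± 0.37) or GAL (-0.53 ± 0.47). It was lower with ANIT than with TAA (-1.58 ± 0.41, edgeR adjusted p = 0.0187) and lower with MDA than with TAA (-1.30 ± 0.24, edgeR adjusted p = 0.00110). In both pairs no mouse overlapped.

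Angptl8, its insulin-responsive relative, fell with ANIT, MDA and ConA. Ctrl mice ranged from 53.2 to 440 CPM (median 104), and the 4 ANIT mice stood under all of them at 27.5, 26.6, 43.3 and 35.3 (-2.06 ± 0.49, edgeR adjusted p = 0.00452). MDA mice held 26.7 to 79.2 CPM (median 42.4) and overlapped Ctrl (-1.44 ± 0.37, edgeR adjusted p = 0.00430). ConA mice held 9.42 to 39.8 CPM (median 16.1) against CIV mice at 164 and 21.3, which are too far apart to place them (-2.11 ± 0.64, edgeR adjusted p = 0.0282). Without CIV mouse 7 the ConA value was 0.07 (edgeR adjusted p = 0.956), so that call rests on 1 control mouse, and without CIV mouse 8 it was -2.94.

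APAP mice were spread more widely for Angptl8 than any other group: 565, 407, 75.5, 37.3, 4.27 and 31.9 CPM in mice 1, 2, 4, 6, 8 and 11. Over all 6 the difference was 0.46 ± 0.64 (edgeR adjusted p = 0.633). Mice were also split by replicate number into 1 to 4 and above 4, a split made here that the labels do not name. The division of the gavage vehicle mice by number had been seen in an earlier look at these data. Tests between or within the ranges are therefore not independent checks. Gavage vehicle mice of these 2 ranges differed in 2.33% of genes. Within the range above 4, Angptl8 was lower with APAP (-2.63, edgeR adjusted p = 0.0296), and within 1 to 4 it was 1.84 (edgeR adjusted p = 0.109). Values of -0.64 ± 0.43 with TAA, 0.76 ± 0.36 with CCl4 and -0.33 ± 0.48 with GAL did not pass. The CCl4 value was called higher under library total scaling (1.20, edgeR adjusted p = 0.036) and without CCl4 mouse 8 (0.88, edgeR adjusted p = 0.0237). The CIP mice behind it held 52.2 and 52.0 CPM, under every Ctrl mouse (53.2 to 440). The CCl4 median of 75.5 CPM lay above both CIP mice but under the Ctrl median of 104. Against the vehicle mice of all routes the CCl4 value was -0.53 and not called (edgeR adjusted p = 0.267), so its sign depended on the vehicle used.

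The partners of both genes in triglyceride clearance (11 tested) were called lower more often than higher with every compound: 2 higher and 4 lower with ANIT, 2 and 6 with APAP, 2 and 4 with MDA, 1 and 5 with TAA, 0 and 7 with CCl4, 0 and 8 with GAL, and 0 and 4 with ConA. The totals called with TAA and ConA lay near the 50.5% and 34.2% of all genes called. Under library total scaling the counts were 3 and 3 with APAP, 2 and 4 with GAL and 0 and 8 with ConA, and without CIP mouse 8 those with GAL were 0 and 3. The transcription factors of fat synthesis Srebf1 (-3.79 to -1.56) and Mlxipl (-2.48 to -1.34) fell with all 7 compounds, although both lost the GAL call without CIP mouse 8. Lpl itself was called with none (-0.64 to 0.56).

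**Figure D3:**
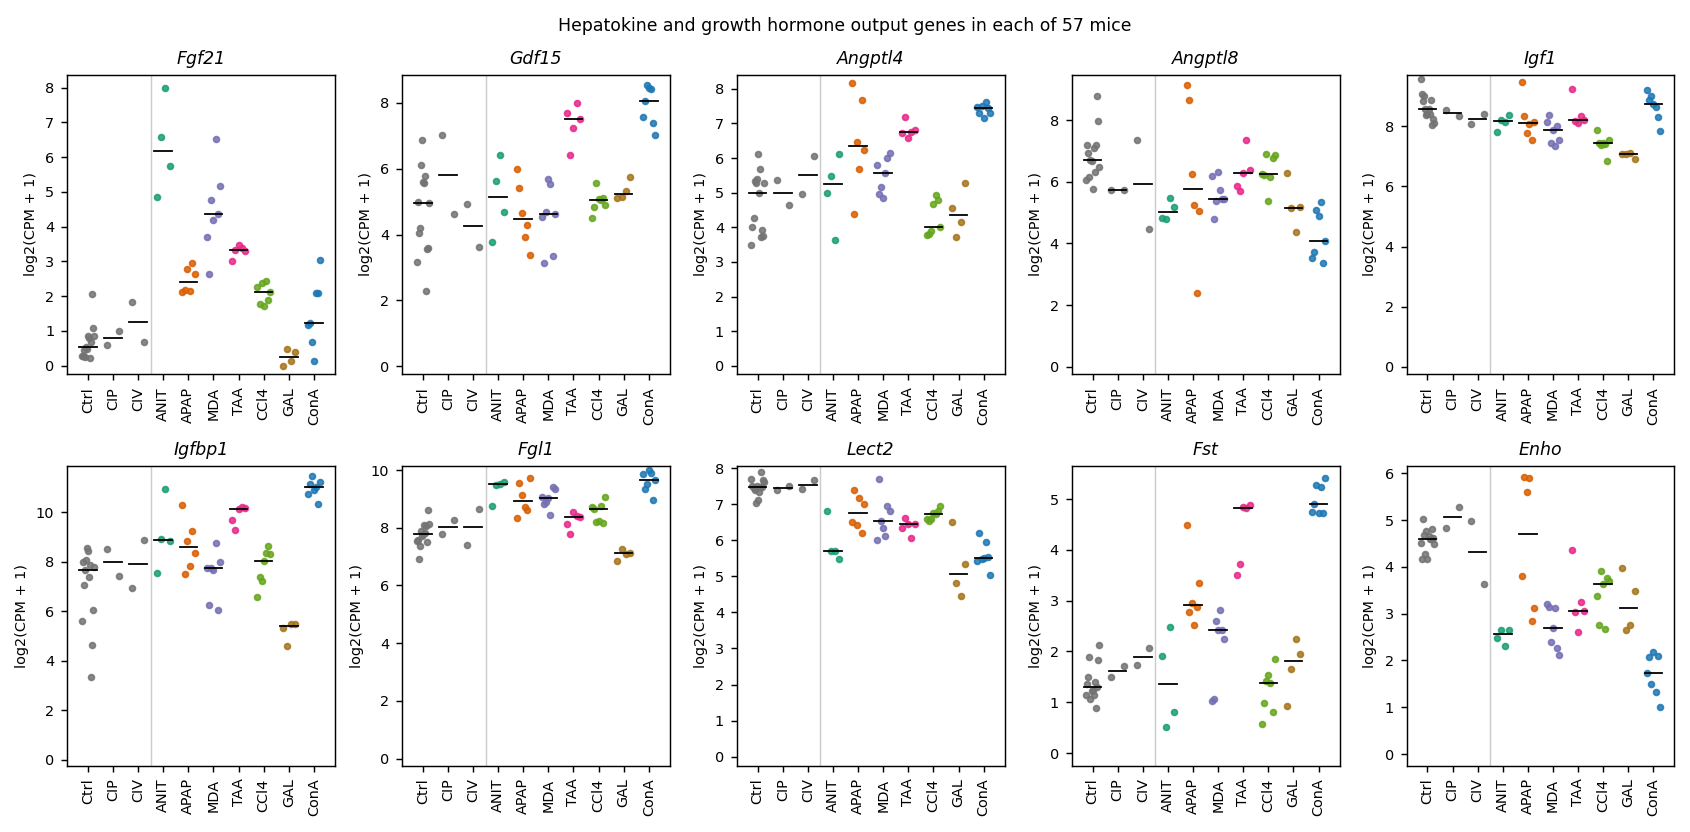
Log2(CPM + 1) of each of the 10 genes (y axis) in each of 57 mice by group (x axis); points are mice, black lines are medians, and vehicles are grey. APAP mice are spread widely for Angptl8 (4.27 to 565 CPM) and fall on both sides of the Ctrl range for Enho (6.13 to 59.3 CPM), while Lect2 is below the Ctrl median (177 CPM) in every treated mouse but MDA mouse 2 (205 CPM).

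Igf1 fell with MDA, CCl4 and GAL. CIP mice held 367 and 319 CPM, GAL mice 134, 135, 137 and 119, and CCl4 mice 114 to 235 (median 172, n = 7). Neither set overlapped CIP: the log2 fold change was -1.39 ± 0.16 with GAL (edgeR adjusted p = 0.00312; -0.63 and 0.0496 under library total scaling) and -0.95 ± 0.21 with CCl4 (edgeR adjusted p = 0.00648). The CCl4 call was lost without CIP mouse 7 (-0.82, edgeR adjusted p = 0.0695) and under library total scaling (-0.54, edgeR adjusted p = 0.0623). These are the 2 groups with low hepatocyte markers, whose median log2 fold change was -1.20 with CCl4 and -1.21 with GAL. MDA mice held 161 to 333 CPM (median 234) against 263 to 763 in Ctrl (median 376), with overlap (-0.82 ± 0.20, edgeR adjusted p = 0.00314), and MDA hepatocyte markers had a median change of -0.01.

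Igf1 was the one member called between the gavage vehicle mice of the 2 number ranges, a division already seen in these data before the test. Ctrl mice 1 to 4 held 763, 531, 454 and 514 CPM, and the 9 others 263 to 465 (0.74 ± 0.15, edgeR adjusted p = 0.0209; 1 of 10 members beside 2.33% of all genes). All 4 ANIT mice carry numbers 1 to 4 and held 222, 294, 282 and 332 CPM. Against all Ctrl mice the ANIT difference was -0.54 ± 0.23 (edgeR adjusted p = 0.0969), and under library total scaling it was -0.698 and called lower (edgeR adjusted p = 0.0039). Against Ctrl mice 1 to 4 it was -1.02 and called (edgeR adjusted p = 0.0115), with no overlap. MDA was lower than Ctrl within 1 to 4 (-1.16) and above 4 (-0.76).

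Igf1 did not pass with APAP (-0.28 ± 0.26), TAA (-0.15 ± 0.24) or ConA. In the APAP group mouse 1 stood at 704 CPM and the other 5 at 186 to 323; without it the value was -0.66 and called lower (edgeR adjusted p = 0.0307). TAA mouse 1 likewise stood at 594 CPM, with the other 4 at 272 to 322. ConA mice ran from 227 to 589 CPM (median 426) around the CIV mice at 270.2 and 337 (0.51 ± 0.32, edgeR adjusted p = 0.250).

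Upstream of Igf1, the receptor gene Ghr fell with all 7 compounds, from -0.94 ± 0.21 with ANIT to -2.08 ± 0.17 with GAL. Stat5b fell with 6, from -0.34 ± 0.12 with MDA to -1.34 ± 0.14 with TAA, and its value with ANIT was -0.27 ± 0.14. Stat5a fell with ANIT (-1.07 ± 0.25), MDA (-0.81 ± 0.15), TAA (-1.13 ± 0.19) and CCl4 (-0.81 ± 0.19), while Jak2 rose with APAP (0.64 ± 0.22), TAA (1.39 ± 0.26) and ConA (2.25 ± 0.61). Library total scaling removed the Stat5b calls with APAP, MDA and GAL and the Stat5a call with CCl4, and without CIP mouse 8 the Stat5b call with GAL and the Stat5a call with CCl4 were lost. Ghr kept its call with all 7 compounds under library total scaling, and with CCl4 and GAL without CIP mouse 8.

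Downstream, Igfals, the subunit that keeps Igf1 in its circulating complex, fell with all 7 compounds, and its change lay below that of Igf1 in each. Its log2 fold change ran from -1.47 ± 0.44 with ConA to -3.46 ± 0.54 with GAL, and in TAA, where Igf1 was at -0.15, Igfals was at -2.99 ± 0.31. Igfals levels ranged from 63.1 to 181 CPM in Ctrl and from 6.91 to 21.5 in TAA mice. The difference between the 2 genes' changes was not tested. Igfbp3, the third part of that complex, fell with MDA (-0.76 ± 0.19), CCl4 (-2.14 ± 0.36) and GAL (-1.11 ± 0.27) and rose with ConA (1.83 ± 0.41), the GAL call being lost under library total scaling and without CIP mouse 8. Igfbp2 rose with ANIT (1.24 ± 0.18), MDA (0.95 ± 0.19) and TAA (0.94 ± 0.21) and fell with CCl4 (-1.21 ± 0.22).

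The feedback inhibitors were called higher only. Socs2 rose with APAP (3.70 ± 0.66), TAA (1.10 ± 0.40) and ConA (3.46 ± 0.64), and Cish with ANIT (2.19 ± 0.59), TAA (1.58 ± 0.51), GAL (2.35 ± 0.40) and ConA (2.73 ± 0.72). Socs3, which also answers to inflammatory cytokines, rose with 6 compounds (1.89 to 5.08) and stood at 1.80 ± 0.67 with GAL. Without CIP mouse 8 the Cish call with GAL and the Socs3 call with CCl4 were lost. In the APAP group Socs2 ran from 3.78 to 129 CPM around a median of 4.36.

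Over the whole list of GH and IGF axis genes (17 to 19 tested), 4 rose and 5 fell with ANIT, 3 and 7 with APAP, 2 and 7 with MDA, 8 and 7 with TAA, 2 and 9 with CCl4, 1 and 8 with GAL, and 8 and 5 with ConA. Under library total scaling the counts were 3 and 4 with APAP and 4 and 4 with GAL, and without CIP mouse 8 those with GAL were 0 and 5. The totals called in the first counting lay above the 28.2% to 50.5% of all genes called with the same compounds. Without CIP mouse 8 only 1 control mouse is left, and the share of all genes called was not computed there. Genes that pulsatile growth hormone keeps high in males (12 tested) fell more often than they rose: 8 of 12 with ANIT (1 rose), 9 with APAP, 7 with MDA, 5 with TAA, 9 with CCl4, 10 with GAL and 5 with ConA (0 rose in these 6). The 5 of 12 with TAA lay under, and the 5 of 12 with ConA near, the 50.5% and 34.2% of all genes called in either direction with these compounds. Both lay above the 24% and 17.3% of all genes called lower. Elovl3, a fatty acid elongase in that list, fell with all 7 compounds (-5.498 to -1.63). Without CIP mouse 8 the CCl4 and GAL counts were both 6, and with GAL library total scaling gave 5. Of female-biased targets (7 to 10 tested), 3 rose and 1 fell with ANIT, 0 and 2 with APAP, 2 and 4 with MDA, 3 and 3 with TAA, 0 and 2 with CCl4, 0 and 1 with GAL, and 2 and 2 with ConA, and the totals with APAP, CCl4 and GAL lay under the 31.8%, 33.5% and 28.5% of all genes called. Hao2 in that list fell with 6 compounds (-5.75 to -2.55) and was not tested with ConA, and Cyp2b9 fell with 5 (-3.90 to -1.32), with GAL at -3.33 ± 1.02 and ANIT at -0.05 ± 0.55. Without CIP mouse 8 the calls of Hao2 with CCl4 and GAL and of Cyp2b9 with CCl4 were lost, and library total scaling removed the Cyp2b9 call with APAP.

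**Figure D4:**
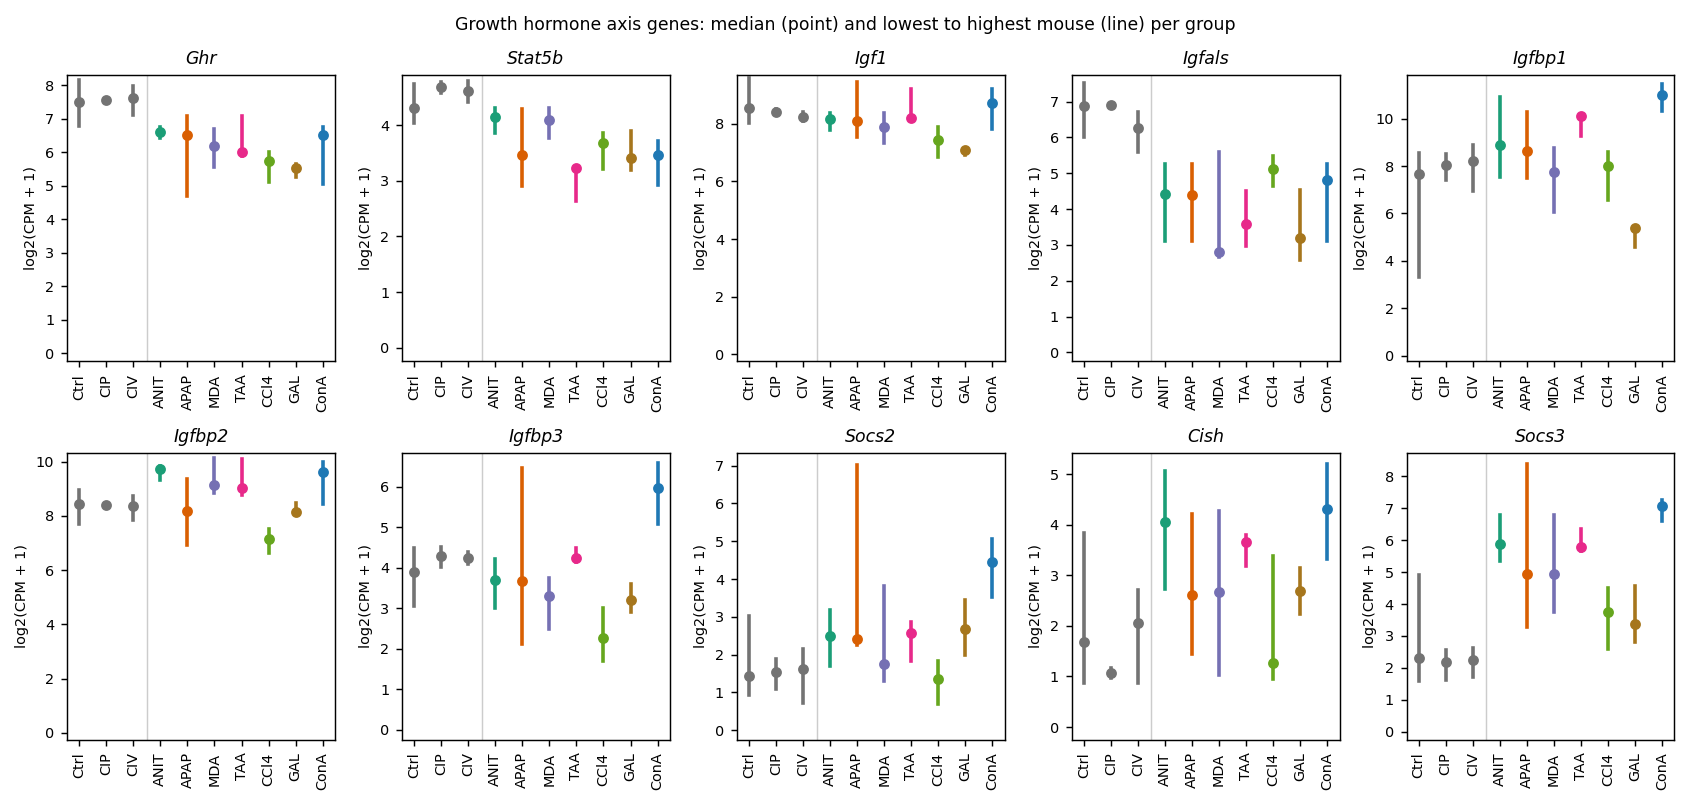
Log2(CPM + 1) of Igf1, Igfbp1 and 8 growth hormone axis genes by group (x axis); points are medians, lines run from the lowest to the highest mouse, and vehicles are grey. Igfals and Ghr medians lie under those of all 3 vehicle groups with each compound, whereas the Igf1 median is highest with ConA (426 CPM).

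Igfbp1 rose with ANIT, APAP, TAA and ConA and fell with GAL. Ctrl mice were widely spread, from 9.03 to 370 CPM (median 203). TAA mice held 823, 623, 1114, 1168 and 1154 CPM, all above them (2.4996 ± 0.52, edgeR adjusted p = 5.15e-04). ConA mice ran from 1283 to 2816 CPM (median 2040, n = 7), above the CIV mice at 122 and 472 (2.85 ± 0.52, edgeR adjusted p = 0.00243; 4.095 without CIV mouse 8 and 2.20 without CIV mouse 7). GAL mice held 38.8, 22.8, 43.7 and 43.1 CPM, under the CIP mice at 367 and 168 (-2.86 ± 0.39, edgeR adjusted p = 0.00462; -2.11 without CIP mouse 7).

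The ANIT and APAP calls of Igfbp1 changed when some mice were left out. ANIT mice held 187, 477, 1957 and 460 CPM (2.10 ± 0.64, edgeR adjusted p = 0.0212), and without mouse 3 the value was 1.06 (edgeR adjusted p = 0.317). APAP mice ran from 179 to 1237 CPM (median 392; 1.53 ± 0.55, edgeR adjusted p = 0.0374). That call was lost without APAP mouse 1 (1.03), 4 (1.56) or 8 (1.47), and within either number range. With MDA the value was 0.22 ± 0.52 and with CCl4 -0.11 ± 0.51. Directly compared, Igfbp1 was lower with MDA than with TAA (-2.27 ± 0.40, edgeR adjusted p = 9.12e-04) and higher with CCl4 than with GAL (2.65 ± 0.40, edgeR adjusted p = 3.02e-04), with no overlap.

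Igfbp1 is 1 of 10 genes in the list of insulin and fasting targets, of which 2 rose and 2 fell with ANIT, 1 and 1 with APAP, 1 and 2 with MDA, 3 and 5 with TAA, 0 and 6 with CCl4, 0 and 6 with GAL, and 4 and 2 with ConA. Library total scaling gave 1 and 2 with ANIT, 0 and 2 with MDA, 0 and 4 with CCl4, and 3 and 3 with ConA. The totals called with APAP and MDA lay under the 31.8% and 33.8% of all genes called. The gluconeogenic gene Pck1 fell with GAL (-4.71 ± 0.54), CCl4 (-2.14 ± 0.37) and TAA (-1.78 ± 0.43), so with TAA it went the opposite way to Igfbp1. G6pc, the last enzyme of glucose output, fell with 6 compounds (-6.77 to -1.80) and stood at -1.16 ± 0.42 with CCl4; its GAL call was lost without CIP mouse 8.

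Fgl1 rose with 5 compounds and fell with GAL. Against 121 to 393 CPM in Ctrl (median 219), ANIT mice held 431, 708, 739 and 772, all above (1.55 ± 0.21, edgeR adjusted p = 3.75e-05). APAP mice held 322 to 852 CPM (median 491; 1.32 ± 0.21, edgeR adjusted p = 9.07e-05) and MDA mice 349 to 687 (median 525; 1.22 ± 0.17, edgeR adjusted p = 1.54e-05), with a little overlap in each. The TAA rise was small (277, 221, 377, 343 and 327 CPM; 0.50 ± 0.19, edgeR adjusted p = 0.0378). It was lost without TAA mouse 6 (0.43), 7 (0.46) or 8 (0.49) and under library total scaling.

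ConA mice held 499 to 1016 CPM of Fgl1 (median 799), above the CIV mice at 169 and 400.1 (1.53 ± 0.37, edgeR adjusted p = 0.0101). That call was lost without CIV mouse 7 (1.07, edgeR adjusted p = 0.0766; 2.25 without CIV mouse 8) and under library total scaling (0.99, edgeR adjusted p = 0.0894). GAL mice held 115, 153, 136 and 138 CPM, under the CIP mice at 218 and 311 (-0.95 ± 0.19, edgeR adjusted p = 0.0154). The GAL call was lost without CIP mouse 8 (-0.75), GAL mouse 8 (-0.96) and under library total scaling (-0.18). CCl4 gave 0.56 ± 0.27 (edgeR adjusted p = 0.147), and library total scaling called it higher (1.02, edgeR adjusted p = 0.0175). Fgl1 was higher with ANIT than with TAA (1.06 ± 0.22, edgeR adjusted p = 0.00697) and with CCl4 than with GAL (1.42 ± 0.19, edgeR adjusted p = 1.47e-04).

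Lect2 fell with all 7 compounds. Vehicle mice were tight, at 130.1 to 236 CPM in Ctrl (median 177), 167 and 179 in CIP, and 170.2 and 202 in CIV. ConA mice held 32.0 to 72.5 CPM (median 44.8), under both CIV mice (-1.89 ± 0.25, edgeR adjusted p = 4.49e-04). ANIT mice held 111, 51.0, 50.7 and 43.5 CPM, under all Ctrl mice (-1.49 ± 0.21, edgeR adjusted p = 6.97e-05). TAA mice followed at 80.3, 97.8, 86.0, 65.3 and 87.1 CPM, again with no overlap (-1.05 ± 0.13, edgeR adjusted p = 1.93e-06).

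The smaller Lect2 declines were those with CCl4 (91.6 to 122 CPM, -0.70 ± 0.12), MDA (63.3 to 205, -0.76 ± 0.18) and APAP (72.6 to 167, -0.62 ± 0.16), with edgeR adjusted p of 0.00195, 0.00288 and 0.00511. CCl4 mice did not overlap CIP, and MDA and APAP mice overlapped Ctrl. GAL mice held 90.3, 27.4, 20.8 and 39.1 CPM, under both CIP mice (-1.97 ± 0.54, edgeR adjusted p = 0.0373), but the call was lost without any of GAL mice 4, 7 and 8 or either CIP mouse (edgeR adjusted p 0.0576 to 0.150). Without GAL mouse 2, the highest, it was -2.56 (edgeR adjusted p = 0.0017). Library total scaling removed the APAP, CCl4 and GAL calls (-0.45, -0.26 and -1.16). Lect2 was higher with CCl4 than with GAL (1.18 ± 0.32, edgeR adjusted p = 0.0116). Summed hepatocyte markers ran from 18400 to 28800 CPM with CCl4 and from 25600 to 33100 with GAL, and their part in this difference was not tested.

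Fst, the activin antagonist, rose with APAP, MDA, TAA and ConA. Ctrl mice held 0.845 to 3.35 CPM (median 1.46), and TAA mice 10.4, 12.2, 27.5, 27.3 and 28.4 (3.68 ± 0.28, edgeR adjusted p = 2.51e-09). ConA mice held 25.3 to 41.5 CPM (median 28.9) against CIV mice at 2.32 and 3.18 (3.57 ± 0.34, edgeR adjusted p = 7.22e-05). APAP mice held 4.76 to 21.6 CPM (median 6.52; 2.45 ± 0.30, edgeR adjusted p = 6.92e-06). In these 3 groups every treated mouse exceeded every vehicle mouse.

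MDA mice held 1.03 and 1.09 CPM of Fst in mice 1 and 2 and 3.75 to 6.04 in the others (1.12 ± 0.31, edgeR adjusted p = 0.00792). ANIT (0.31 ± 0.45), CCl4 (-0.49 ± 0.53) and GAL (0.25 ± 0.56) did not pass. Fst was lower with ANIT (-3.37 ± 0.65, edgeR adjusted p = 0.00496; -4.07 without ANIT mouse 3) and MDA (-2.55 ± 0.43, edgeR adjusted p = 6.26e-04) than with TAA. TAA and ConA are also the groups with the highest medians of neutrophil markers, at 308 and 229 CPM.

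Among activin genes (11 or 12 tested), 3 rose and 0 fell with ANIT, 2 and 0 with APAP, 3 and 1 with MDA, 6 and 2 with TAA, 1 and 0 with CCl4, 3 and 2 with GAL, and 4 and 1 with ConA. Library total scaling gave 5 and 0 with CCl4 and GAL, 4 and 0 with APAP, 1 and 1 with ANIT and 2 and 2 with ConA. In the first counting the totals called with ANIT, APAP, MDA and CCl4 lay near or under the 28.2%, 31.8%, 33.8% and 33.5% of all genes. Without CIP mouse 8, which leaves 1 control mouse, the CCl4 and GAL calls were lost (median log2 fold change 0.226 and -0.238). Inhbb, which encodes the activin B subunit, was called higher with all 7 compounds (2.07 to 4.79), with the CCl4 and GAL calls lost without CIP mouse 8. Its level rose from a Ctrl median of 0.431 CPM to 15.2 CPM with TAA. Inhba, the activin A subunit, was called with none (-0.62 to 0.90). Inhbe, a hepatokine subunit, rose with ANIT (1.24 ± 0.36, lost under library total scaling) and fell with TAA (-1.44 ± 0.40) and ConA (-2.09 ± 0.51), and with GAL it stood at -2.62 ± 1.04. Fstl3, a relative of Fst, rose with APAP (2.08 ± 0.50), TAA (2.85 ± 0.42) and ConA (3.85 ± 0.83) and was too low to be tested with ANIT and MDA.

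Enho fell with 6 compounds, and with the other one, APAP, the mice were far apart. Ctrl mice held 17.1 to 31.7 CPM (median 23.2), and ANIT mice 4.55, 5.32, 3.94 and 5.28 (-2.27 ± 0.17, edgeR adjusted p = 1.45e-07). MDA mice held 3.35 to 8.25 CPM (median 5.48; -1.99 ± 0.19, edgeR adjusted p = 1.41e-07). All ANIT and MDA mice were under all Ctrl mice. TAA mice held 19.6 in mouse 1 and 7.25, 5.09, 8.46 and 7.29 in the others (-1.22 ± 0.24, edgeR adjusted p = 3.72e-04).

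ConA gave the lowest Enho levels, 0.996 to 3.51 CPM (median 2.31), under CIV mice at 30.7 and 11.5 (-3.11 ± 0.45, edgeR adjusted p = 6.36e-04; -2.18 without CIV mouse 7). CCl4 mice held 5.35 to 14.03 CPM (median 11.5) and GAL mice 14.7, 5.31, 5.74 and 10.1, under the CIP mice at 27.6 and 38.1. These differences were -1.67 ± 0.32 (edgeR adjusted p = 0.00337) and -1.87 ± 0.42 (edgeR adjusted p = 0.0202). Without CIP mouse 8 neither passed (-1.44 and -1.69, edgeR adjusted p = 0.0512 and 0.120), and the GAL call was also lost without GAL mouse 8 or CIP mouse 7 and under library total scaling (-1.07).

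In APAP livers Enho stood at 12.9, 6.13 and 7.65 CPM in mice 1, 8 and 11 and at 59.3, 47.5 and 59.1 in mice 2, 4 and 6. The former lay under every Ctrl mouse and the latter above every Ctrl mouse, so the group difference of 0.50 ± 0.36 did not pass (edgeR adjusted p = 0.310) although none of the 6 mice lay within the Ctrl range. Enho was higher with APAP than with MDA (2.499 ± 0.53, edgeR adjusted p = 0.0101) and lower with ANIT than with APAP (-2.79 ± 0.71, edgeR adjusted p = 0.0447). The latter call was lost when any of the 4 ANIT mice or APAP mice 2, 4 or 6 was left out, with the highest edgeR adjusted p at 0.131.

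Among mice numbered 1 to 4 alone, where groups hold 2 to 4 mice, several other gavage calls changed. The calls of Angptl4 with APAP (2.72, edgeR adjusted p = 0.0936), Angptl8 with MDA (-0.91, edgeR adjusted p = 0.172), Igfbp1 with ANIT (2.26, edgeR adjusted p = 0.0728), Fst with MDA (0.65, edgeR adjusted p = 0.5), Lect2 with APAP and MDA, and Enho and Fgl1 with TAA were lost. Gdf15 (3.06) and Angptl4 (2.615) with TAA were further from Ctrl and Fst (2.65) closer, all still called. With library totals in place of TMM the ConA changes of Angptl8 (-2.755), Lect2 (-2.51) and Enho (-3.82) were larger and those of Gdf15 (3.01) smaller, and Igfbp1 with GAL was -2.13, all called.

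Since the saline groups hold 2 mice each, every compound was also set against all 17 vehicle mice, a comparison that mixes routes. Members called were then 6 with ANIT (28.0% of all genes), 6 with APAP (33.4%), 7 with MDA (34.2%), 7 with TAA (49.7%), 5 with CCl4 (53.4%), 7 with GAL (52.5%) and 9 with ConA (68.0%). The CCl4 count is near the background. Fgf21 was now called lower with GAL (-2.02 ± 0.81, edgeR adjusted p = 0.0416) and higher with ConA (1.68 ± 0.54, edgeR adjusted p = 0.00857). The GAL call was lost without CIP mouse 8 (-1.96, edgeR adjusted p = 0.0521), under library total scaling (-1.30, edgeR adjusted p = 0.173) or without GAL mouse 2, 7 or 8, and the ConA call without ConA mouse 12 (1.09, edgeR adjusted p = 0.0933).

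Other calls also shifted against all vehicles. Fgl1 was called higher with CCl4 (0.65 ± 0.18, edgeR adjusted p = 0.00285) and was no longer called with TAA (0.43 ± 0.20, edgeR adjusted p = 0.0809). Angptl8 was called lower with GAL (-1.59 ± 0.57, edgeR adjusted p = 0.0236), a call lost without GAL mouse 4, 7 or 8, and its ANIT call was lost without ANIT mouse 2 (edgeR adjusted p = 0.0533). Igfbp1 lost its ANIT call without ANIT mouse 3 (0.89) and its APAP call without APAP mouse 1, 4 or 8 or CIP mouse 8. Igf1 with ConA was 0.20 ± 0.18 and became -0.46 under library total scaling, where it was called lower (edgeR adjusted p = 0.00177). Lect2 was lower with all 7 (-2.05 to -0.62) and Enho with 6, and Igfbp1 with ConA reached 3.43 ± 0.43 (edgeR adjusted p = 1.26e-07).

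Between compounds of a route, member calls numbered 2 for ANIT against APAP (5.98% of all genes), 6 for ANIT against TAA (26.2%), 2 for APAP against MDA (9.43%), 1 for APAP against TAA (2.62%), 6 for MDA against TAA (30.0%) and 5 for CCl4 against GAL (42.5%). For ANIT against MDA edgeR called 0 members and 0% of all genes, with 1253 genes at an unadjusted p under 0.05 and 78 called by DESeq2. The count for CCl4 against GAL is near its background. All 5 CCl4 against GAL calls were higher with CCl4: Fgf21, Igfbp1, Fgl1, Lect2 and Angptl8 (1.00 ± 0.36, edgeR adjusted p = 0.0433, lost without any of 9 of the 11 mice). Of the 6 calls of MDA against TAA, Fgf21 and Fgl1 were higher with MDA, and Gdf15, Angptl4, Igfbp1 and Fst lower. Of the 6 calls of ANIT against TAA, Fgf21 and Fgl1 were higher with ANIT, and Gdf15, Angptl4, Angptl8 and Fst lower. Between vehicles no member was called, for CIP (0.0131% of all genes) or CIV (0.0263%) against Ctrl.

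By median level, which can be compared between genes here only because the estimated counts look corrected for length, Igf1 (376 CPM), Fgl1 (219), Igfbp1 (203) and Lect2 (177) led in Ctrl livers. Fst (1.46) and Fgf21 (0.447) were lowest. With ANIT the Fgf21 median of 73.7 CPM exceeded that of Lect2 (50.9), and with ConA Igfbp1 (2040) was the highest of the 10. Across the 10 group means of log2(CPM + 1), the members with the closest patterns were Angptl4 and Fst (Pearson r = 0.955) and Angptl4 and Igfbp1 (r = 0.820), given as a description over 10 points that share normalization.

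Among the 12241 genes that averaged 1 CPM or more, the patterns most like Fgf21 over the 10 group means were those of 2010003K11Rik (r = 0.972), Tmem62 (0.948) and Desi2 (0.945). For Gdf15 they were Jun (0.961), Ep400 (0.958) and Wipf2 (0.944), for Igf1 Agt (0.950), Pigo (0.944) and Anxa11 (0.938), and for Igfbp1 Ldha (0.956), Arid5b (0.952) and St3gal1 (0.946). Over the deviations of the 57 mice from their group means, Jun and Gdf15 had r = 0.817 and Agt and Igf1 r = 0.683, while Desi2 and Fgf21 had r = -0.097. The other 9 pairs lay between -0.194 and 0.410.

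Of 17 other hepatokine genes, 8 rose and 3 fell with ANIT, 2 and 5 with APAP, 4 and 2 with MDA, 2 and 6 with TAA, 2 and 10 with CCl4, 1 and 10 with GAL, and 5 and 3 with ConA. Library total scaling gave 5 and 3 with ANIT, 2 and 6 with CCl4, 2 and 5 with GAL and 2 and 5 with ConA. The total called with MDA lay near, and that with TAA under, the 33.8% and 50.5% of all genes called. Angptl6 fell with 6 compounds (-2.09 to -0.996; CCl4 0.24 ± 0.28), and Hgfac, the activator of hepatocyte growth factor, with 6 (-1.78 to -0.69; ConA -0.09 ± 0.29). The GAL call of Angptl6 was lost under library total scaling and without CIP mouse 8. Of the members' receptors measured in liver (7 or 8 tested), Lilrb4a rose with APAP (1.56 ± 0.38), TAA (2.31 ± 0.46) and GAL (2.04 ± 0.52, lost without CIP mouse 8). Gpr19, proposed as a receptor for adropin, fell with APAP, MDA and TAA (-0.98 to -0.70), the APAP call being lost under library total scaling.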

How the data were processed

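RNA-seq of perfused liver (outer left lateral lobe, total RNA) was analysed from one deposited table of estimated counts per gene for 57 mice. The authors made these expected (estimated) counts with Salmon 1.6.0 and R 4.1.3 on build GRCm39, per the submitters' processing notes; trimming, annotation release and any length correction are not given in the sources used here. From the values, counts of single-transcript genes looked corrected for length, so they are not raw fragment numbers. Ensembl IDs were given symbols from GENCODE M21 (51482 of 54307 matched), and groups came from the labels. The labels name separate mice and no further replicate structure.

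Counts were rounded and tested with edgeR 4.0.16 in R 4.3.3: filterByExpr, TMM factors, quasi-likelihood fit, Benjamini-Hochberg adjustment over all genes tested in a comparison, threshold 0.05. Each fit held only the groups compared. SE is the absolute log2 fold change over the square root of F. Levels are CPM over 57-mouse TMM-scaled totals; library totals ran from 13826343 to 35075809, and low levels such as Fgf21 in controls rest on few counts. The fit was tested on simulated data. Alternatives were DESeq2 1.42.0, other scalings and filters, a replicate block, the 2 ranges of replicate numbers, a pooled fit, and leaving out each treated mouse and each saline mouse. The comparisons against all vehicles without CIP mouse 8, and the gene lists under other scalings and without that mouse, were added after seeing the data. Named genes are the 10 members; partner genes are named receptors, signalling parts and targets, and from each pathway list the 2 genes called one way with the most compounds against their route vehicle (ties by the larger median absolute log2 fold change); the 3 likest genes are named for Fgf21, Gdf15, Igf1 and Igfbp1. The members and lists were chosen with earlier results of these data known. Promoters came from RefSeq (GRCm38.p6), and no other coordinates are given because the builds differ. Some partner genes are not reported here.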

Additional observations from a re-analysis of the deposited data

Results flagged for a closer look

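A mouse was marked where its gap to the nearest of its group exceeded Dixon's 95% limit on the log2(CPM + 1) scale. Of 70 groups of 4 to 10 mice tested, 4 held such a mouse, and chance marks about 1 in 20 groups. TAA mouse 1 stood high for Igf1 at 594 CPM, with the other 4 at 272 to 322. GAL mouse 8 stood low for Igf1 at 119 CPM, next to 134, 135 and 137 in the others. ANIT mouse 1 stood low for Fgl1 at 431 CPM, against 708, 739 and 772, and high for Lect2 at 111 CPM, against 51.0, 50.7 and 43.5.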

How the results depend on the processing

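Counts of members called moved by over 1.5 times in these settings. Among mice numbered 1 to 4 alone, which leaves fewer samples and only 1 CCl4 mouse, assumed to vary like the other group, they were 3 for APAP and 4 for MDA against Ctrl, 3 for APAP, 4 for MDA, 3 for CCl4 and 3 for GAL against all vehicles, 2 for MDA against TAA, and 0 for ANIT against APAP, ANIT against TAA, APAP against MDA, APAP against TAA and CCl4 against GAL. Among mice numbered above 4 they were 4 for GAL against all vehicles, 0 for APAP against MDA and 2 for APAP against TAA. DESeq2 gave 4 for ANIT against APAP, 5 for APAP against MDA, 4 for APAP against TAA and 2 between Ctrl mice of the number ranges. Library total scaling gave 2 for GAL against CIP, 4 for GAL against all vehicles, 4 for ANIT against APAP and 2 between the Ctrl ranges. Counting only changes of 1 or more in size on the log2 scale gave 2 for CCl4 against CIP, 4 for MDA and 3 for CCl4 against all vehicles, and 0 between the Ctrl ranges. One fit over all mice gave 2 for CCl4 against CIP, no low-count filter gave 1 for ANIT against APAP, and the number range as a covariate gave 8 for CCl4 against GAL. In the settings of this section the share of all genes called was not computed. A loss or gain of calls over all genes therefore cannot be told apart from one of the members. The cause was not tested.

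With the replicate block, the counts were 1 for APAP against Ctrl, 2 for APAP against all vehicles, and 0 for ANIT against APAP, ANIT against TAA, APAP against MDA and APAP against TAA. In no comparison with 2 or more same-numbered pairs did every pair deviate together with a correlation over 0.1, and the single pair of ConA and CIV had 0.128, so the numbers were not taken to pair the mice. CCl4 and CIP, and ConA and CIV, share too few numbers for a block.

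Leaving out 1 mouse at a time gave 2 to 5 calls for GAL against CIP (2 without GAL mouse 8, 3 without CIP mouse 7 or 8), 1 to 2 for ANIT against APAP and 0 to 5 for APAP against TAA. Signs of called values, or of values called in some setting, turned for Gdf15 with CCl4 (-2.01 to 0.49) and GAL (-1.76 to 0.83) between leaving out CIP mouse 8 and CIP mouse 7, for Angptl8 with ConA (-2.94 to 0.067), for Angptl8 with APAP among mice numbered above 4 (-2.63) and, under library total scaling, for Igf1 with ConA against all vehicles (-0.46). Uncalled values also changed sign, among them Igf1 with ConA against CIV (-0.16) and Angptl8 with GAL against CIP (0.47) under library total scaling, and Igfbp1 with CCl4 (-0.58 to 0.59) and Angptl8 with APAP (-0.32 without APAP mouse 1) with mice left out. Without CIP mouse 8, an alternative chosen after seeing the data, the counts against all vehicles were 6, 5, 7, 7, 5, 6 and 9 in the order ANIT, APAP, MDA, TAA, CCl4, GAL and ConA. Library total scaling shifted the median of all genes by 0.76 with GAL, 0.43 with CCl4, -0.59 with ConA, -0.22 with ANIT and 0.16 with APAP on the log2 scale. Saline groups of 2 mice and low Fgf21 and Fst counts limit precision.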
